A study of Mus musculus with 78 samples.

Results

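The genes that encode the 3 TGF-beta ligands (Tgfb1, Tgfb2 and Tgfb3), their 3 main receptors (Tgfbr1, Tgfbr2 and Tgfbr3) and the 4 latent TGF-beta binding proteins (Ltbp1, Ltbp2, Ltbp3 and Ltbp4) were followed in mouse carotid arteries after a change of blood flow. They are the members of these 3 families by name, 10 of the 17097 genes that had an array probe set annotated to 1 symbol. Each gene was read from the probe set with the highest mean over all arrays. All 10 passed the filter on low values (above the array median on at least 4 of 78 arrays), as did 11344 genes in all.

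The samples were 78 Affymetrix expression arrays, 1 for each common carotid artery of 39 mice: the left (LCA) and the right (RCA). The RNA had been washed out of the lumen, which enriches it for the endothelium. All mice, vehicle controls included, had undergone partial ligation of the LCA, surgery that leaves this artery with low and disturbed flow; the RCA of the same animal was the control and is thus not from an unoperated mouse. Mice received vehicle or atorvastatin, a statin that lowers cholesterol, by mouth at 10 mg/kg/day, beginning 2 days ahead of surgery. Arteries were collected 12 h, 24 h, 48 h or 2 weeks later. The vehicle groups held 5 mice at each time, numbered 1 to 5, and the atorvastatin groups 5 mice, numbered 6 to 10, except 4 at 48 h (numbers 6 to 9). Strain, genotype and age are not given in the labels. Each mouse was measured at 1 time, so the times compare different animals.

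TGF-beta ligands are secreted as inactive precursors: the propeptide stays bound to the mature ligand, and in most cells a latent binding protein ties this complex to the extracellular matrix until proteases or integrins release the ligand. Free ligand binds the receptor encoded by Tgfbr2, which phosphorylates the one encoded by Tgfbr1, and SMAD proteins then carry the signal to the nucleus. Betaglycan, the product of Tgfbr3, presents the ligands to that pair. In vessels the pathway is known for its part in smooth muscle differentiation, matrix production and endothelial-to-mesenchymal transition.

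Values are log2 expression after RMA, a method that gives all arrays a like distribution, and array medians lay between 4.59 and 4.77. A difference is LCA minus RCA within a mouse, on the log2 scale. "Called" means an adjusted p under 0.05 from limma (moderated statistics over all 39 mice, Benjamini-Hochberg adjustment over the 11344 genes); SE is the standard error of that fit. All 12 endothelial markers were measured, and 10 to 12 of them lay above the array median on every array of each group. The arteries also held RNA of other cells. Of 12 macrophage markers, 8 and 10 were higher in the LCA at 48 h (vehicle and atorvastatin) and 11 and 11 at 2 weeks. All 4 tested neutrophil markers were higher at 48 h, and all 6 tested smooth muscle markers at 2 weeks, in both treatments. Of all tested genes 20.8% and 16.6% were called higher at 48 h (vehicle and atorvastatin) and 15.5% and 14.5% at 2 weeks. In such bulk samples, more or fewer cells of a type and more or less RNA per cell cannot be told apart.

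Promoter sequences are shown for members called higher in the LCA at 2 weeks in both treatments (Ltbp2, Ltbp1, Tgfbr1 and Ltbp3). Ltbp4, called lower at that time, is shown beside them. Each runs 5′ to 3′ on the gene's strand, from 250 bases before to 50 bases after an annotated transcript start, and comes from RefSeq (GRCm38.p6), which held 12 such entries for 8 of the 10 genes; Tgfb3 and Tgfbr3 had none. For Tgfbr1 and Ltbp4 the first listed start is printed, of 2 and 3 starts. Capitals mark CAGACA, a sequence that SMAD proteins can bind, and GGGCGG, the box bound by Sp1-type factors, each searched on both strands (as TGTCTG and CCGCCC on the other).
Ltbp2: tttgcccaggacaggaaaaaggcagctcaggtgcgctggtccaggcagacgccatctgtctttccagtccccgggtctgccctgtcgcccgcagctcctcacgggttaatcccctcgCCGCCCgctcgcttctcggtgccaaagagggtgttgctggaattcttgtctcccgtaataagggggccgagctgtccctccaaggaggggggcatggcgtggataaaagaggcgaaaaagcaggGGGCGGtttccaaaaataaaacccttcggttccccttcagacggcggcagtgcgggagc
Ltbp1, first start: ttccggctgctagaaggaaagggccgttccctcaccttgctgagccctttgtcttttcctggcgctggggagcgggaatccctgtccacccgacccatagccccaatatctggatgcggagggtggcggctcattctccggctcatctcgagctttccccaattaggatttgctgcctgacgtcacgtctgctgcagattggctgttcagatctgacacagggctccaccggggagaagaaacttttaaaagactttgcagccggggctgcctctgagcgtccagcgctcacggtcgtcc
Ltbp1, second start: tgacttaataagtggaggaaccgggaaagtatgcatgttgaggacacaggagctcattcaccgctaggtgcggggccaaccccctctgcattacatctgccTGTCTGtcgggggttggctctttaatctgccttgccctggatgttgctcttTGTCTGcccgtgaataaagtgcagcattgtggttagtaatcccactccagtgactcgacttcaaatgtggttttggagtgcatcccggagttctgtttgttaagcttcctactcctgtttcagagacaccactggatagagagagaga
Tgfbr1, first start: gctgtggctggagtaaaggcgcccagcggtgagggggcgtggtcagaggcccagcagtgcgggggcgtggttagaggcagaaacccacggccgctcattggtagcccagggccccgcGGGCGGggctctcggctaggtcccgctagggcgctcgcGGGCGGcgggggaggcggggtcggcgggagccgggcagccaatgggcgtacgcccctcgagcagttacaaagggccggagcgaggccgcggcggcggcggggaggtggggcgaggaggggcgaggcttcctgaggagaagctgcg
Ltbp3: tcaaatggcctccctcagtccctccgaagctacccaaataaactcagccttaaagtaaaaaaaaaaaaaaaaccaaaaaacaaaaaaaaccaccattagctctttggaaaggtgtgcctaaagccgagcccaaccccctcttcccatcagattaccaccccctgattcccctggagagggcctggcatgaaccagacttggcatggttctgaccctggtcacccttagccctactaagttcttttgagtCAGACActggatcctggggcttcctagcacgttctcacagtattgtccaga
Ltbp4, first start: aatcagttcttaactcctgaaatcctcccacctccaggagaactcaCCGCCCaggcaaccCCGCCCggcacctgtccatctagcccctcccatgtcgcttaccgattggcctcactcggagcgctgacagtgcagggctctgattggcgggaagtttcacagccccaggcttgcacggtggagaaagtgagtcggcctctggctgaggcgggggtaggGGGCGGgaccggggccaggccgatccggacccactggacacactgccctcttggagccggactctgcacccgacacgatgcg
The Ltbp2 window lies at chr12:84876442-84876741 (minus strand), Ltbp1 at chr17:75005279-75005578 for the first and chr17:75178531-75178830 for the second start (plus), Tgfbr1 at chr4:47352972-47353271 (plus), Ltbp3 at chr19:5740650-5740949 (plus) and Ltbp4 at chr7:27337563-27337862 (minus). CAGACA matched 2 times at the second Ltbp1 start and 1 time at Ltbp3; it had 0 matches in the other printed windows (Ltbp2, Tgfbr1, Ltbp4 and the first Ltbp1 start). GGGCGG matched 2 times in Ltbp2, 2 times in Tgfbr1 and 3 times in Ltbp4, and 0 times in the Ltbp1 and Ltbp3 windows. The starts not printed differed: the second Tgfbr1 start (chr4:47385966-47386265, GC 52%) held CAGACA 1 time and GGGCGG 0 times, and the other 2 Ltbp4 starts, which overlap each other (chr7:27333599-27333898 and chr7:27333614-27333913, GC 80.3% and 81.3%), held GGGCGG 7 and 9 times and CAGACA 0 times. Among 32851 promoter windows of that length, 21% held CAGACA and 35.7% held GGGCGG, so neither is rare. The GC content of the printed windows ran from 48.0% in Ltbp3 to 74.7% in Tgfbr1, against a median of 52.7% over all windows. Neither motif was found in all 4 of the printed members called higher at 2 weeks.

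Across time, the members went from 0 calls at 12 h to most of the set at 48 h and 2 weeks, and the pattern was mixed in direction at 48 h and mostly upward at 2 weeks. In vehicle-treated mice 0 of 10 members were called at 12 h by limma (2 at an unadjusted p under 0.05; 2.39% of all tested genes were called), 3 of 10 at 24 h (all higher; background 14.3%, of which 7.19% higher), 8 of 10 at 48 h (3 higher and 5 lower; background 36.2%, with 20.8% higher and 15.4% lower) and 6 of 10 at 2 weeks (5 higher and 1 lower; background 27.8%, with 15.5% higher and 12.3% lower). With atorvastatin the counts were 0 of 10 at 12 h (3 unadjusted; background 1.68%), 2 of 10 at 24 h (1 higher and 1 lower; background 13.1%, with 7.29% higher and 5.8% lower), 6 of 10 at 48 h (2 higher and 4 lower; background 31.8%, with 16.6% higher and 15.2% lower) and 6 of 10 at 2 weeks (5 higher and 1 lower; background 29.9%, with 14.5% higher and 15.4% lower). The same 6 genes were called at 2 weeks in both treatments: Tgfb3, Tgfbr1, Ltbp1, Ltbp2 and Ltbp3 rose and Ltbp4 fell. The median difference of the 10 members at 2 weeks was 0.55 with vehicle and 0.83 with atorvastatin, against -0.01 and -0.03 over all tested genes; at 48 h it was -0.48 and -0.23, against 0.01 and -0.01. Several of these counts rest on single mice: without vehicle mouse 1, 3 or 5 the 48 h count was 5, without vehicle mouse 4 the 2-week count was 3, and without atorvastatin mouse 6 or 9 the 48 h count was 1 or 3. Fitted on the mice of 1 group alone, the 48 h counts were 3 with vehicle and 1 with atorvastatin. The 24 h count with atorvastatin was 0 without mouse 8 and 1 without mouse 7, 9 or 10.

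The LCA and RCA values of a group did not overlap for 1 of 10 members at 12 h in each treatment (Tgfbr3; 2.97% of all tested genes with vehicle and 2.08% with atorvastatin). At 24 h this held for 2 and 2 members (12.6% and 10.7% of all genes), at 48 h for 3 and 2 (12.4% and 16.7%) and at 2 weeks for 4 and 6 (20.3% and 27.4%).

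**Figure D1:**
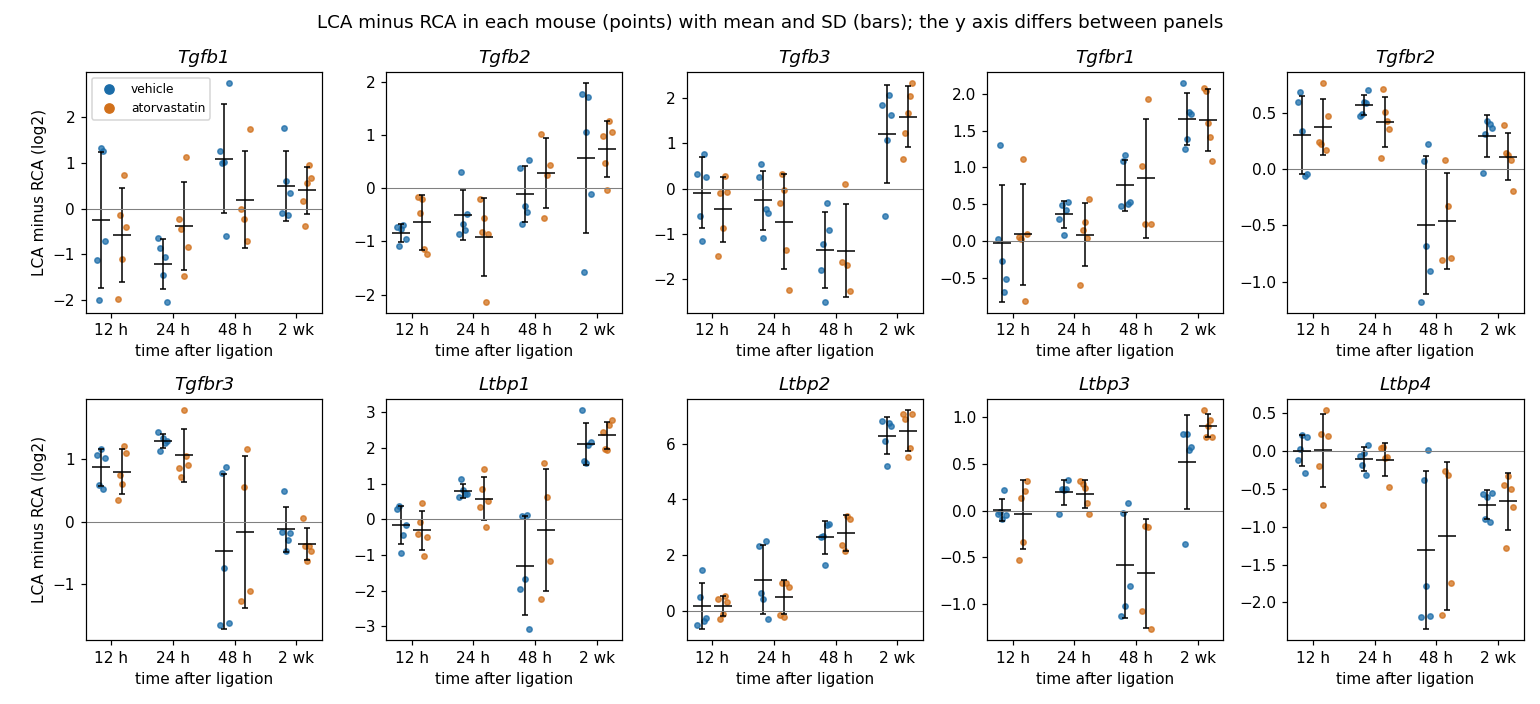
LCA minus RCA on the log2 scale (y axis, which differs between panels) against time after ligation (x axis) for the 10 genes; each point is 1 mouse, and bars show the group mean and SD. Ltbp2 climbs to means of 6.29 and 6.47 at 2 weeks, while Ltbp1, Ltbp3, Ltbp4, Tgfbr2 and Tgfbr3 spread widely between mice at 48 h.

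Of the ligands, Tgfb3 changed most: it fell in the ligated artery at 48 h and rose at 2 weeks. At 48 h the LCA of vehicle mice 1 to 5 measured 4.54, 5.28, 3.88, 5.17 and 4.60, and the RCA of the same mice 6.35, 6.50, 6.37, 5.50 and 5.51. Every LCA value was below every RCA value, with a difference of -1.35 ± 0.83 (SD, n = 5; SE 0.37, limma adjusted p = 0.0042). Under atorvastatin the difference at 48 h was -1.37 ± 1.02 (SD, n = 4, limma adjusted p = 0.011), lower in 3 of 4 mice. Without mouse 6 or mouse 9 the adjusted p was 0.059 and 0.11, and fitted on this group alone it was 0.10.

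At 2 weeks the Tgfb3 levels in the LCA of vehicle mice were 7.97, 4.83, 7.41, 8.65 and 7.46, against 6.11, 5.44, 6.33, 6.57 and 5.83 in the RCA. Mouse 2 went the other way, so the groups overlapped, and the difference was 1.20 ± 1.08 (SD, n = 5; limma adjusted p = 0.013). It was 1.66 without mouse 2, and the adjusted p was 0.054 to 0.086 without mouse 1, 4 or 5. Fitted on this group alone, the limma adjusted p was 0.052. Under atorvastatin the LCA measured 7.10, 7.45, 8.05, 8.54 and 8.09 and the RCA 6.45, 6.21, 6.39, 6.49 and 5.75. These groups did not overlap (1.59 ± 0.67, SD, n = 5; limma adjusted p = 0.00097).

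Tgfb2, a ligand best known from heart and vessel development, was lower in the LCA of 5 of 5 mice at 12 h in both treatments, but neither difference was called (-0.85, limma adjusted p = 0.17, with vehicle and -0.64, adjusted p = 0.41, with atorvastatin). At 24 h it was called lower with atorvastatin: the LCA measured 5.84, 5.84, 5.80, 4.57 and 5.43 and the RCA 6.05, 6.67, 6.36, 6.70 and 6.29, without overlap (-0.92 ± 0.73, SD, n = 5; limma adjusted p = 0.041). Leaving out mouse 7, 8, 9 or 10 ended this call (limma adjusted p 0.063 to 0.25), and so did a fit on these mice alone (0.070). With vehicle the 24 h difference was -0.50 (limma adjusted p = 0.30). At 2 weeks the vehicle differences of mice 1 to 5 were 1.76, -1.57, 1.05, 1.70 and -0.10, and their mean of 0.57 was not called (limma adjusted p = 0.17). Without mouse 2 that mean was 1.10 (adjusted p = 0.0029). The 2-week difference under atorvastatin, 0.74, was higher in 4 of 5 mice and not called (limma adjusted p = 0.065); it was called without mouse 8 (0.94, adjusted p = 0.037) and on these mice alone (adjusted p = 0.021).

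Tgfb1, the ligand most widely expressed in adult tissue, was called in 1 of the 8 comparisons of LCA with RCA, vehicle at 48 h. The LCA then measured 6.85, 6.83, 6.99, 6.03 and 6.95 and the RCA 5.57, 5.82, 5.97, 6.62 and 4.19, so mouse 4 went against the other 4 (1.09 ± 1.19, SD, n = 5; limma adjusted p = 0.042). Leaving out mouse 1, 2, 3 or 5 ended this call (limma adjusted p 0.070 to 0.29), and so did a fit on these mice alone (0.11). At 24 h the direction was opposite in all 5 vehicle mice, from -2.04 to -0.64, with a mean of -1.21 close to the threshold (limma adjusted p = 0.051); fitted on these mice alone it was called (adjusted p = 0.011). Under atorvastatin the difference was -0.38 at 24 h and 0.20 at 48 h (limma adjusted p = 0.62 and 0.79).

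The type I receptor gene Tgfbr1 was called higher in the ligated artery at 48 h and at 2 weeks. Its mean difference was larger at 2 weeks, but the change from 48 h to 2 weeks was not called in either treatment. At 2 weeks the LCA of vehicle mice measured 9.54, 8.99, 9.34, 9.67 and 9.56 and the RCA 7.39, 7.74, 7.96, 7.91 and 7.83. Under atorvastatin the values were 9.53, 9.72, 9.56, 9.33 and 9.18 against 7.45, 7.68, 7.96, 7.92 and 8.10. All 10 LCA values exceeded all 10 RCA values, with differences of 1.65 ± 0.35 (SD, n = 5; limma adjusted p = 9.5e-07) and 1.64 ± 0.43 (SD, n = 5; limma adjusted p = 9.1e-07), or 3.15-fold and 3.13-fold. The 48 h differences were 0.76 (limma adjusted p = 0.011) and 0.85 (adjusted p = 0.012), again without overlap. Without vehicle mouse 3 the first was 0.65 (limma adjusted p = 0.065). Without atorvastatin mouse 8, the highest at 1.93, the second was 0.49 (adjusted p = 0.20). Without mouse 6 its adjusted p was 0.064, and fitted on the atorvastatin mice of that time alone it was 0.17. Both other Tgfbr1 probe sets also had higher means in the LCA at 48 h (0.42 to 0.99) and 2 weeks (1.38 to 1.93), but lower ones at 24 h (-0.46 to -0.23), where the chosen probe set gave 0.36 and 0.09 and was not called.

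Tgfbr3, encoding betaglycan, was the member with the largest called rise at 24 h. At 24 h its LCA level in vehicle mice was 10.81, 10.54, 10.71, 10.65 and 10.71 and its RCA level 9.38, 9.42, 9.39, 9.40 and 9.43. The 5 mice thus differed between their arteries by nearly the same amount (1.28 ± 0.11, SD, n = 5; limma adjusted p = 0.0017). Under atorvastatin the difference was 1.06 ± 0.42 (SD, n = 5; limma adjusted p = 0.0094), 0.88 without mouse 8 (adjusted p = 0.070), also without overlap. At 12 h the arteries did not overlap either, yet 0.87 and 0.80 were not called (limma adjusted p = 0.098 and 0.17). By 48 h the differences ran from -1.65 to 1.16 over the 9 mice, and neither mean was called (-0.47 and -0.17, limma adjusted p = 0.19 and 0.73); without vehicle mouse 2 or 4 the vehicle mean was -0.79 or -0.81 and called (adjusted p = 0.035 and 0.024). At 2 weeks Tgfbr3 differed by -0.12 and -0.36 and was not called. The second Tgfbr3 probe set had the same signs at all 4 times.

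Tgfbr2, the type II receptor, rose at 24 h and fell at 48 h by small amounts. In vehicle mice at 24 h the LCA measured 10.31, 10.31, 10.48, 10.24 and 10.56 and the RCA 9.84, 9.82, 9.89, 9.65 and 9.86, without overlap (0.57 ± 0.09, SD, n = 5; limma adjusted p = 0.0093). The atorvastatin value was 0.42, higher in 5 of 5 mice and not called (limma adjusted p = 0.058); it was called without mouse 6 (0.50, adjusted p = 0.049). A second Tgfbr2 probe set went the other way at 24 h (-0.54 and -0.36), and with the mean of all probe sets the vehicle value was -0.01 (adjusted p = 0.97), so the 24 h direction differs between probe sets. At 48 h Tgfbr2 was lower (-0.50 and -0.46, limma adjusted p = 0.0093 and 0.032), a call lost without vehicle mouse 1 or 5 (adjusted p = 0.13 and 0.078) or without atorvastatin mouse 6, 8 or 9 (0.21, 0.050 and 0.21). With the mean of all probe sets these values were -0.26 and -0.28 (adjusted p = 0.052 and 0.067). Fitted on the mice of each group alone, neither 48 h value was called (limma adjusted p = 0.17 and 0.25).

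A sign of RNA quality differed between the arteries at 24 h, and at 12 h with atorvastatin. Its part and that of the ligation cannot be told apart in these groups. The log2 ratio of the 3′ to the 5′ Gapdh control probe sets grows when RNA is broken or amplified short. In vehicle mice at 24 h it was 4.97 ± 0.47 (SD, n = 5) for LCA arrays and 4.04 ± 0.24 for RCA arrays. With atorvastatin it was 4.56 ± 0.29 against 4.10 ± 0.20 at 24 h, and 4.87 ± 0.81 against 4.205 ± 0.21 at 12 h (SD, n = 5). With the LCA minus RCA difference of this ratio as a covariate, 0 of 10 members were called in the vehicle group at 24 h: Tgfbr3 differed by 1.0 (limma adjusted p = 0.093), Ltbp2 by 1.07 (adjusted p = 0.15) and Tgfbr2 by 0.28 (adjusted p = 0.43). Under atorvastatin Tgfbr3 was then the 1 member still called. The Gapdh ratio went the other way at 48 h with vehicle (3.95 ± 0.42 in the LCA, 4.33 ± 0.20 in the RCA, SD, n = 5) and was 4.0 against 3.81 at 2 weeks with vehicle. The mean actin ratio was higher in the LCA at all 4 times in both treatments. At 48 h it was -0.04 ± 0.26 against -0.17 ± 0.19 with vehicle (SD, n = 5) and -0.04 ± 0.18 against -0.45 ± 0.08 with atorvastatin (SD, n = 4). At 2 weeks it was -0.13 ± 0.20 against -0.48 ± 0.13 with vehicle and -0.13 ± 0.16 against -0.43 ± 0.12 with atorvastatin (SD, n = 5). Its part in the results was not tested at any time. At 48 h with vehicle 7 of 8 calls kept their side of the threshold with the covariate, all but Tgfb1 (adjusted p = 0.11).

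Ltbp2 had the largest change of the 10 genes at 48 h and at 2 weeks. Its product is the latent binding protein that does not hold latent TGF-beta and is found on elastic fibres. At 2 weeks the LCA of vehicle mice measured 10.76, 9.63, 10.52, 10.93 and 10.88, and the RCA 3.96, 3.52, 5.33, 4.20 and 4.27. Under atorvastatin the LCA measured 11.11, 11.36, 10.70, 11.03 and 11.03 and the RCA 4.05, 4.46, 5.19, 5.20 and 3.98. The 2 arteries were far apart in all 10 mice. The differences were 6.29 ± 0.67 (SD, n = 5; SE 0.32, limma adjusted p = 1.6e-16) and 6.47 ± 0.74 (SD, n = 5; adjusted p = 3e-17), or 78.3-fold and 88.5-fold. The RCA values lie around the array median, so these folds rest on a low RCA level.

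The Ltbp2 rise was already present at 48 h. The LCA then measured 6.87, 6.89, 5.45, 7.85 and 7.82 with vehicle and 6.97, 6.74, 7.42 and 7.22 with atorvastatin, all above the RCA values of 3.81 to 4.76. The differences of 2.64 ± 0.60 (SD, n = 5; limma adjusted p = 3.2e-07) and 2.80 ± 0.63 (SD, n = 4; adjusted p = 1.2e-06) were called in every alternative tried. At 24 h the vehicle mice disagreed: their differences were 2.31, 0.65, 0.44, 2.52 and -0.30, with a mean of 1.12 (limma adjusted p = 0.017) that was not called without mouse 1 or mouse 4 (adjusted p = 0.12 and 0.14). Fitted on these mice alone, the vehicle mean was not called either (limma adjusted p = 0.12). The atorvastatin mean at 24 h was 0.50 (limma adjusted p = 0.34), and at 12 h both were 0.17.

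**Figure D2:**
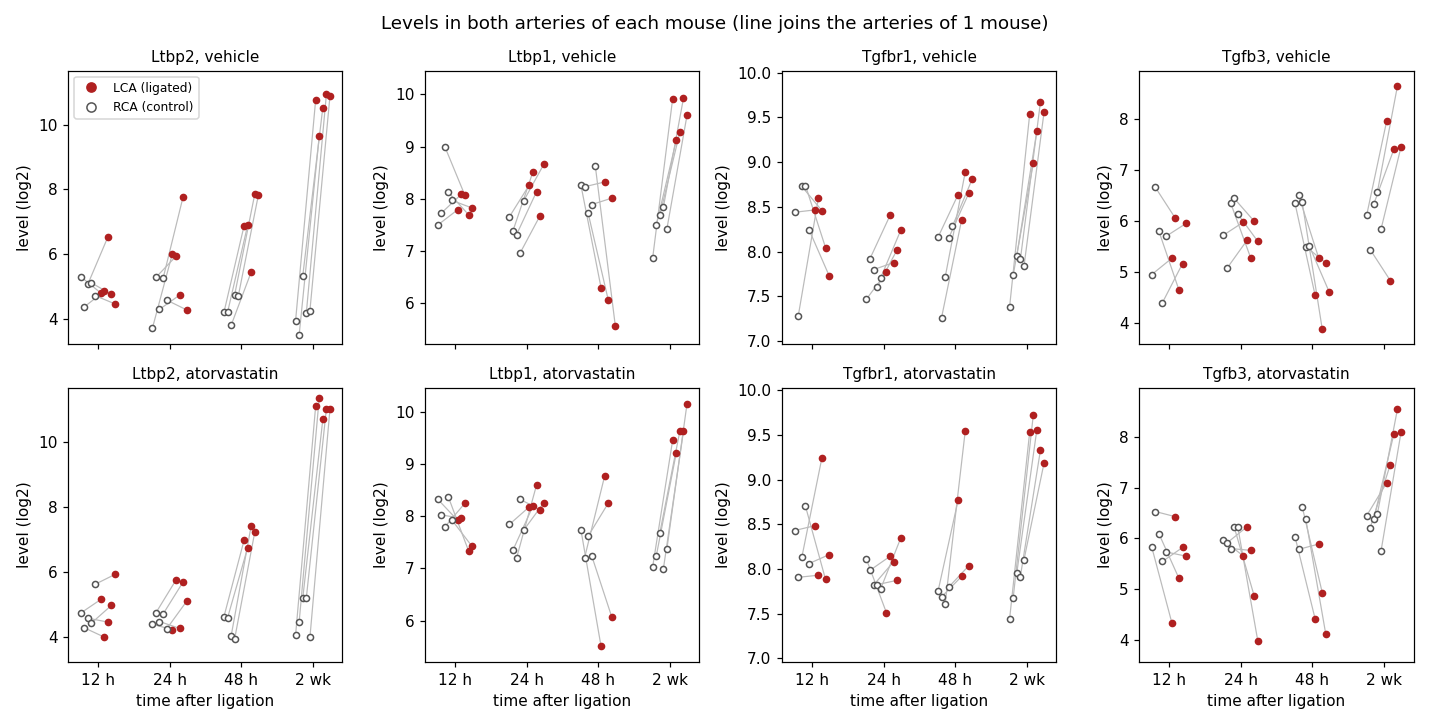
Log2 level (y axis) in the LCA (red) and RCA (open) of each mouse against time after ligation (x axis) for Ltbp2, Ltbp1, Tgfbr1 and Tgfb3, vehicle above and atorvastatin below; a line joins the arteries of 1 mouse. At 2 weeks every Ltbp2 value in the LCA lies at 9.63 or higher and every RCA value at 5.33 or lower.

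Ltbp1, which binds latent TGF-beta and fixes it to fibrillin microfibrils, rose at 2 weeks. The LCA of vehicle mice measured 9.92, 9.12, 9.27, 9.92 and 9.60 and the RCA 6.86, 7.49, 7.69, 7.84 and 7.43 (2.11 ± 0.60, SD, n = 5; limma adjusted p = 2.6e-05). Under atorvastatin the LCA measured 9.46, 9.21, 9.63, 9.63 and 10.15 and the RCA 7.03, 7.23, 7.67, 6.99 and 7.38 (2.36 ± 0.37, SD, n = 5; adjusted p = 3.7e-06). Neither treatment showed overlap. Of the other Ltbp1 probe sets, one was above the array median on 18 of 78 arrays (1.02 and 1.38 at 2 weeks) and one on 0, so they add little. At 24 h it was higher in 5 of 5 vehicle and 4 of 5 atorvastatin mice without a call (0.80 and 0.58, limma adjusted p = 0.14 and 0.32). At 48 h the vehicle mean was lower and called (-1.30, limma adjusted p = 0.0055), while the atorvastatin mean of -0.30 was not (adjusted p = 0.61). Without vehicle mouse 5, the lowest, the vehicle mean was -0.85 (adjusted p = 0.096). Fitted on the vehicle 48 h mice alone, it was not called (limma adjusted p = 0.10).

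Ltbp3, which binds all 3 latent ligands, fell at 48 h and rose at 2 weeks. At 2 weeks the LCA under atorvastatin measured 11.23, 11.01, 11.17, 11.12 and 11.10 and the RCA 10.15, 10.22, 10.26, 10.14 and 10.31, an even separation (0.91 ± 0.12, SD, n = 5; limma adjusted p = 4.4e-05). In vehicle mice the differences were 0.83, -0.36, 0.82, 0.65 and 0.68, with mouse 2 alone below 0 (mean 0.52, limma adjusted p = 0.016). Without mouse 2 the mean was 0.74 (adjusted p = 0.00083), and without mouse 1, 3, 4 or 5 the call was lost (adjusted p 0.058 to 0.083). At 48 h Ltbp3 differed by -0.59 and -0.67 (limma adjusted p = 0.0056 and 0.0053), lost without vehicle mouse 1 or 3 (adjusted p = 0.067 and 0.053) or atorvastatin mouse 6 or 9 (0.071 and 0.10). With the mean of all Ltbp3 probe sets they were -0.56 and -0.25 (adjusted p = 0.098 and 0.56), and the vehicle value at 2 weeks was 0.59 (adjusted p = 0.097). Fitted on each group alone, the 48 h values were not called (limma adjusted p = 0.11 and 0.18), nor was the vehicle 2-week value (0.089).

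Ltbp4, the member of the family tied to elastin assembly and to latent TGF-beta1, was the 1 gene of the 10 called lower in the LCA at 2 weeks. The vehicle LCA measured 10.86, 10.71, 10.61, 10.36 and 11.11 and the RCA 11.43, 11.61, 11.21, 11.29 and 11.66; the atorvastatin LCA 10.94, 10.26, 11.06, 11.001 and 10.80 and the RCA 11.38, 11.54, 11.40, 11.50 and 11.54. All 10 mice were lower in the LCA and neither treatment showed overlap, though the size was modest (-0.71 and -0.66, limma adjusted p = 0.024 and 0.034). The calls were lost without single mice: without vehicle mouse 2 or 4 the adjusted p was 0.067 and 0.086, and without atorvastatin mouse 6, 7, 9 or 10 it was 0.050 to 0.18. At 48 h the means were -1.30 and -1.12 (limma adjusted p = 7.5e-05 and 0.0016), the second lost without mouse 6 (-0.77, adjusted p = 0.059). The 48 h differences spread widely between mice (SD 1.05, n = 5, and 0.98, n = 4). Fitted on the mice of each group alone, neither was called (limma adjusted p = 0.057 and 0.14).

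The 48 h means hide a split between mice that ran the same way through several members. In vehicle mice 1, 2, 3, 4 and 5 Ltbp4 differed by -2.19, -0.38, -1.78, 0.01 and -2.18, and in atorvastatin mice 6, 7, 8 and 9 by -2.17, -0.26, -0.31 and -1.75. Ltbp1 gave -1.96, 0.09, -1.66, 0.12 and -3.07, then -2.22, 1.57, 0.63 and -1.17. Tgfbr3 gave -1.65, 0.77, -0.74, 0.86 and -1.62, then -1.27, 0.55, 1.16 and -1.11. Vehicle mice 1, 3 and 5 and atorvastatin mice 6 and 9 had the low values in each of these genes, and in Ltbp3 and Tgfbr2 too. Ltbp2 did not follow this split: it was lowest in vehicle mouse 3 (1.64) and highest in atorvastatin mouse 8 (3.40), and above 0 in all 9.

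The fibroblast markers moved with the same mice. The mean LCA minus RCA of the 8 markers was -1.83, -0.36, -1.80, 0.32 and -1.33 in vehicle mice 1 to 5 and -1.68, 0.56, 0.47 and -1.16 in atorvastatin mice 6 to 9. Of the 8, 3 and 2 were called lower and 0 higher, where 15.4% and 15.2% of all tested genes were lower. The mean level over the 8 genes ran from 5.41 to 8.62 in the LCA and from 6.93 to 8.44 in the RCA. The mean of the 12 endothelial markers differed by -0.67 to 0.02, but single markers went both ways: 5 and 7 of 12 were called lower (Cldn5 by -1.72 and -2.21, Tek by -1.08 and -1.05) and 2 and 2 higher (Kdr by 1.5 and 1.44, Emcn by 1.30 and 1.24). Beside these endothelial counts, 15.4% and 15.2% of all tested genes were called lower and 20.8% and 16.6% higher. The mean of the 5 neutrophil markers differed by 4.05, 3.82, 4.99, -0.07 and 4.7, then 5.18, 1.36, 2.89 and 3.80. The part of these cells in the 48 h results was not tested.

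**Figure D3:**
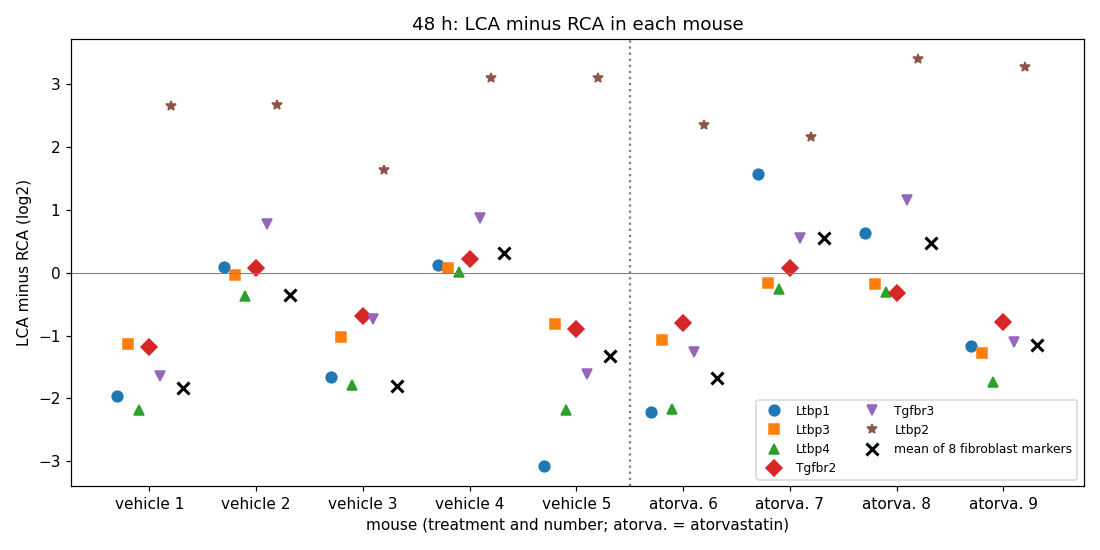
LCA minus RCA on the log2 scale (y axis) at 48 h for 6 genes (coloured symbols) and for the mean of 8 fibroblast markers (black crosses) in each of the 9 mice (x axis, vehicle left and atorvastatin right of the dotted line). Ltbp1, Ltbp3, Ltbp4, Tgfbr2 and Tgfbr3 are low in vehicle mice 1, 3 and 5 and atorvastatin mice 6 and 9, where the fibroblast markers lie between -1.83 and -1.16, while Ltbp2 is at 1.64 or higher in every mouse.

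At 2 weeks the smooth muscle markers differed between the vehicle mice. The mean of the 7 smooth muscle markers differed by 3.24, -0.10, 2.53, 3.07 and 2.14 in vehicle mice 1 to 5 and by 2.47 to 3.23 under atorvastatin; their mean level was 5.42 to 8.83 and 8.06 to 8.89 in the LCA and 5.11 to 5.76 and 5.40 to 5.75 in the RCA. Des was above the array median on no array of either artery at that time, and Actg2 on no RCA array. In mouse 2, which had no rise in these markers, Tgfb2 (-1.57), Tgfb3 (-0.61) and Ltbp3 (-0.36) were lower in the LCA. Its Ltbp2 (6.11), Ltbp1 (1.63) and Tgfbr1 (1.25) were higher as in the other mice. Its macrophage markers differed by 3.89, within the 2.21 to 4.34 of the vehicle mice. This contrast rests on 1 mouse. Tgfb2 was also lower in vehicle mouse 5 (-0.10) and atorvastatin mouse 8 (-0.04), where the smooth muscle markers rose. Over the 12 macrophage markers the mean level at 2 weeks was 7.59 to 8.48 in the LCA and 3.47 to 5.80 in the RCA, where Adgre1, C1qa and Fcgr1 were above the array median on no array in either treatment. Whether smooth muscle or macrophage RNA has a part in the 2-week results was not tested.

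Tested directly, the difference between the arteries depended on time for 10 of 10 members with vehicle (moderated F test; background 32.9%) and for 9 of 10 with atorvastatin (background 33.5%), all but Tgfb1. The Tgfb2 call with vehicle was close to the threshold (adjusted p = 0.049), and without single mice it ran from 0.001 to 0.17. From 12 h to 24 h, 0 of 10 members were called in either treatment by limma (1 and 0 at an unadjusted p under 0.05; background 0%). From 24 h to 48 h, 7 of 10 were called with vehicle (2 up and 5 down; background 27.8%, with 15% up and 12.7% down) and 5 of 10 with atorvastatin (1 up and 4 down; background 24.1%, with 11.1% up and 13% down). The largest fall was Ltbp1 with vehicle, by 2.09 (SE 0.52, adjusted p = 0.0034). With the Gapdh ratio as a covariate the vehicle count was 0, and the atorvastatin count was 2 without 48 h mouse 6 or 9, 3 without 24 h mouse 8 and 8 without 48 h mouse 7. From 48 h to 2 weeks, 5 of 10 rose with vehicle (background 5.76%, of which 3.68% higher) and 4 of 10 with atorvastatin (background 8.32%, of which 4.28% higher), and 0 fell. Tgfb3 (2.56 and 2.96), Ltbp1 (3.40 and 2.65), Ltbp2 (3.65 and 3.67) and Ltbp3 (1.11 and 1.58) rose in both treatments over this step, and Tgfbr2 with vehicle (0.79, adjusted p = 0.021). These steps share the 48 h mice.

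Levels were also tested within each artery. In the LCA 9 of 10 members changed over time with vehicle (all but Tgfb2; background 49.5%) and 8 of 10 with atorvastatin (background 42.5%). In the RCA 2 of 10 changed with vehicle (Ltbp1 and Ltbp4; background 26.8%) and 1 of 10 with atorvastatin (Ltbp4; background 5.88%). Mean RCA levels of Ltbp4 at 12 h, 24 h, 48 h and 2 weeks were 10.8, 11.2, 11.1 and 11.4 with vehicle (F test adjusted p = 0.0033) and 10.9, 11.2, 11.4 and 11.5 with atorvastatin (adjusted p = 0.019, and 0.074 without 12 h mouse 9). For Ltbp1 the vehicle RCA means at these times were 8.06, 7.45, 8.14 and 7.46, highest at 48 h, when its LCA minus RCA was called lower. The control artery was thus not constant for Ltbp4 or, with vehicle, for Ltbp1. With the Gapdh ratio as a covariate, 0 members were called in the vehicle RCA.

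Other genes of the pathway were read from 5 lists. The clearest movement was among the target genes, those that TGF-beta is known to switch on in many cells. At 2 weeks 10 of 14 tested targets were higher and 2 lower in the LCA in each treatment, with medians of 1.95 and 1.8 against -0.01 and -0.03 over all genes. Of all tested genes 15.5% were higher and 12.3% lower with vehicle, and 14.5% and 15.4% with atorvastatin. The matrix genes Postn (3.97, SE 0.60, limma adjusted p = 2.8e-06, and 5.17 with atorvastatin), Tgfbi (4.23 and 3.88) and Col1a1 (3.27 and 4.07) were among the largest. Ccn2, the connective tissue growth factor, was called higher at all 4 times in both treatments: 2.25, 2.38, 3.32 and 3.15 with vehicle and 1.81, 1.82, 3.81 and 2.78 with atorvastatin. The 2 lower targets, named after their values were seen, were the metalloproteinase inhibitor Timp3 (-1.05 and -0.89) and the transcriptional repressor Bhlhe40 (-1.07 and -1.15). In vehicle mouse 2 the mean over the targets was 0.38, against 1.22 to 2.97 in the other 4. Acta2 is also among the smooth muscle markers and Col1a1 among the fibroblast markers, and the listed targets are transcribed in those cells too.

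Among activators and stores of latent TGF-beta, 5 of 9 tested genes were higher at 2 weeks with vehicle and 6 of 9 with atorvastatin, with 0 lower and medians of 1.46 and 1.65 (15.5% and 14.5% of all tested genes were higher). They included Nrros, which tethers latent TGF-beta on macrophages and microglia (2.37 and 1.81), the integrin subunits Itgb3 (2.15 and 1.96) and Itgb5 (1.69 and 1.8), and the gelatinase Mmp2 (1.82 and 2.40). At 48 h 4 and 6 were higher (20.8% and 16.6% of all tested genes), among them Mmp9 (2.14 and 1.45), Nrros (1.98 and 1.93) and Mmp14 (1.48 and 1.40). The activators Thbs1 and Itgb8 and the store Fbn1 were not analysed here.

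Among the receptors, SMADs and inhibitors 3 and 4 of 9 and 3 and 3 of 8 were called at 2 weeks, where 27.8% (vehicle) and 29.9% (atorvastatin) of all tested genes were. Of 9 co-receptors and SMADs, 1 was higher and 2 lower at 2 weeks with vehicle, and 0 were higher and 4 lower with atorvastatin. Acvrl1, the endothelial type I receptor ALK1, had the largest fall in both (-0.95, SE 0.13, limma adjusted p = 4.4e-07, and -1.31, adjusted p = 5.4e-10), opposite to Tgfbr1. Smad2 was higher with vehicle (0.50, limma adjusted p = 0.028), and Smad4 (-0.50) and Acvr1 (-0.62) were lower with atorvastatin. Of 8 inhibitors and feedback genes, 2 were higher (Tgif1, 1.41 and 1.55, and Tgif2, 0.89 and 1.02) and 1 lower (Ski, -0.81 and -0.86) at 2 weeks in both treatments; Smad7 was called only at 48 h with atorvastatin (-0.53, limma adjusted p = 0.025). Of 5 tested matrix proteins and proteases that bind or limit the ligand, 2 were lower at 48 h in both treatments, the serine protease Htra1 (-1.07 and -1.0) and the proteoglycan Bgn (-0.44 and -0.51), where 15.4% and 15.2% of all tested genes were lower. At 2 weeks 0 were lower; the proteoglycan Fmod was higher with vehicle (0.72, limma adjusted p = 0.015), and the proteases Htra3 (1.13, adjusted p = 0.035) and Htra1 (0.68, adjusted p = 0.033) with atorvastatin.

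**Figure D4:**
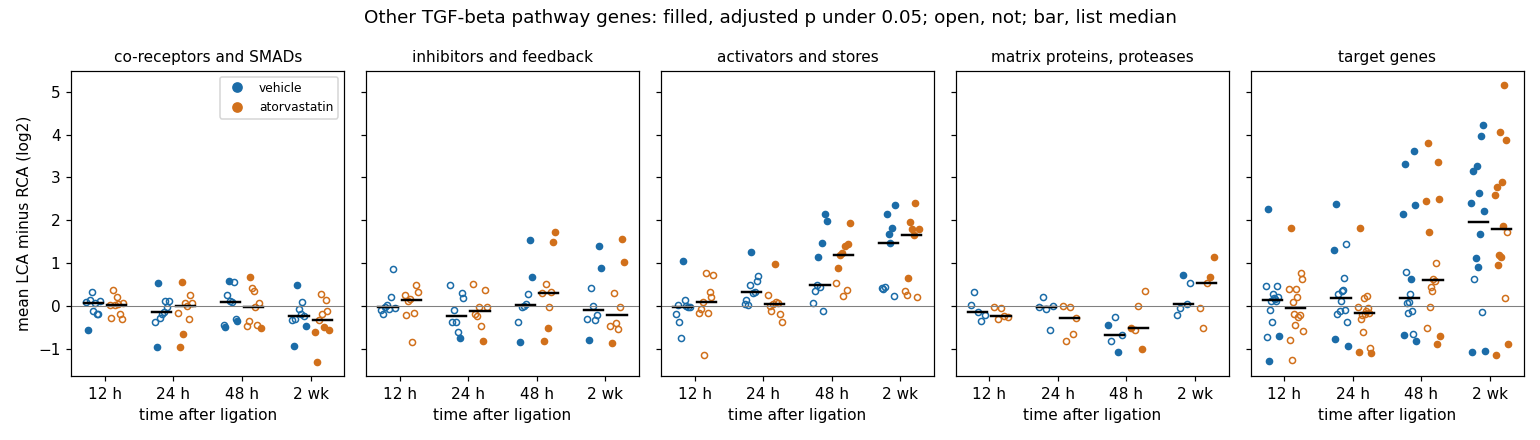
Mean LCA minus RCA on the log2 scale (y axis) of each tested gene in 5 pathway lists against time after ligation (x axis), vehicle in blue and atorvastatin in orange; filled points have an adjusted p under 0.05 and bars are list medians. The target genes reach medians of 1.95 and 1.8 at 2 weeks, while the co-receptors and SMADs have medians of -0.23 and -0.34.

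Atorvastatin left no called difference in any member. Over 13 comparisons and 130 tests (the effect on LCA minus RCA at each time and over the mean of the 4 times, and atorvastatin against vehicle within the LCA and within the RCA), 0 were called by limma and 1 had an unadjusted p under 0.05. Of all tested genes 0.00882% were called for the effect on LCA minus RCA at 12 h, 0.0176% at 2 weeks, 0.0441% within the RCA at 12 h and 0.00882% within the RCA at 2 weeks, and 0% in the other 9 comparisons. The 1 was Ltbp1 in the RCA at 48 h, lower with atorvastatin by -0.70 (95% interval -1.20 to -0.19, adjusted p = 0.36); its RCA means were 8.14 with vehicle and 7.45 with atorvastatin. The atorvastatin effect on LCA minus RCA of Ltbp1 at 48 h was 1.0 (95% interval -0.11 to 2.11, limma adjusted p = 0.96). At 2 weeks the effect on Ltbp2 was 0.18 (95% interval -0.75 to 1.10), on Tgfbr1 -0.01 (-0.68 to 0.66), on Ltbp3 0.39 (-0.09 to 0.86) and on Ltbp4 0.05 (-0.64 to 0.74). Some intervals reach about 2 log2 units (Tgfb1 at 24 h, -0.39 to 2.05), so these comparisons do not show that the treatments act alike.

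**Figure D5:**
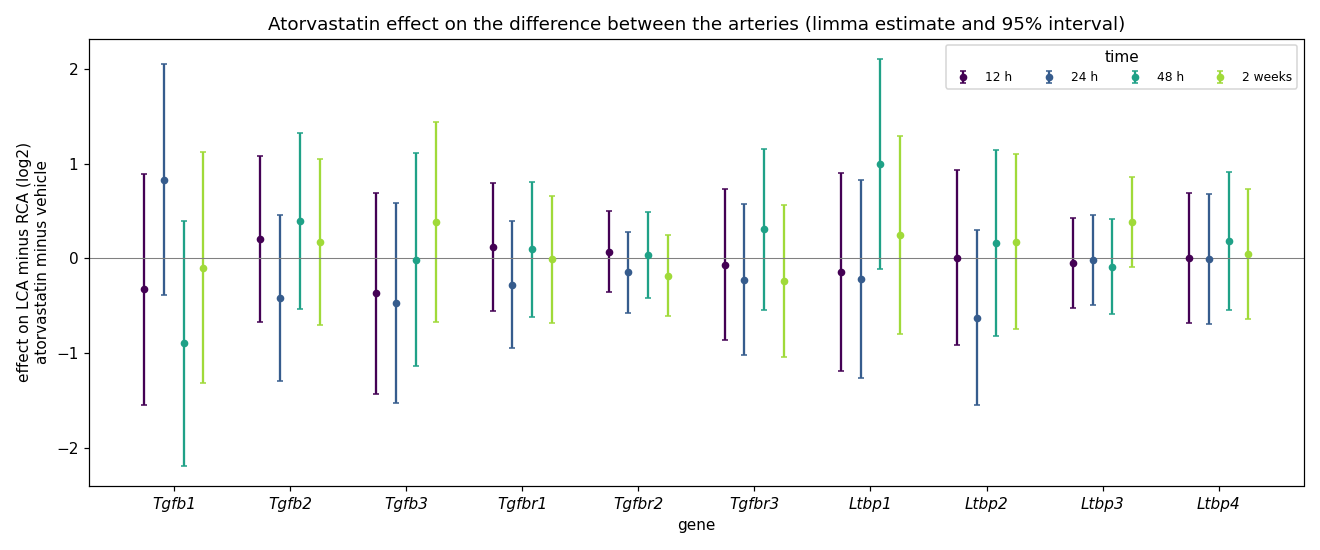
Effect of atorvastatin on LCA minus RCA (y axis, log2, atorvastatin minus vehicle) for the 10 genes (x axis) at 4 times (colours); points are limma estimates and bars 95% intervals. All intervals include 0, from the narrow ones of Tgfbr2 (-0.61 to 0.25 at 2 weeks) to the wide ones of Tgfb1 (-1.32 to 1.12).

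As a description, the members fell into sets when their differences were correlated over the 39 mice, which share times, arrays and cell makeup. Tgfbr3 and Ltbp4 (Pearson r = 0.86), Tgfb3 and Ltbp3 (0.83), Ltbp1 and Ltbp3 (0.82) and Tgfbr1 and Ltbp2 (0.79) were the closest pairs. Among all tested genes Ltbp2 was most like Slamf9 (r = 0.92, Spearman rho = 0.79), Rgs10 (0.92, 0.84) and Ms4a7 (0.91, 0.78), the last on the macrophage marker list. Tgfbr3 was most like Gabarapl1 (r = 0.96, rho = 0.87), and Ltbp4 like Vwf (0.94, 0.82) and Ptprb (0.94, 0.85), both known from endothelium. Tgfb3 was most like the smooth muscle gene Lmod1 (r = 0.85, rho = 0.77), Tgfb2 like Mcam (0.82, 0.80), Ltbp3 like Kazald1 (0.89, 0.71) and Ltbp1 like the collagen gene Col4a5 (0.85, 0.86). Tgfbr1 was most like Nfkbiz (r = 0.85, rho = 0.83), Tgfbr2 like Oxr1 (0.90, 0.82) and Tgfb1 like Nedd8 (0.78, 0.78).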

How the data were processed

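Values are the authors' deposited RMA signals on the log2 scale (RMA as named in the submitters' processing notes). Its software version and the chip definition were not given in the sources used here. Qiazol washed the RNA from the lumen, per the labels' protocols, which mention 4 batches without naming their samples, so batch was not tested. Of 45118 probe sets, 81 were controls, 28898 carried 1 symbol, 551 several and 15588 none (platform annotation). A gene was tested when above the array median on at least 4 of 78 arrays (11344 of 17097 genes).

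Within-mouse LCA minus RCA differences were fitted with limma 3.58.1 (statmod 1.5.0, R 4.3.3) over 8 treatment by time groups, and LCA and RCA values in separate fits. Intervals are 95%. The number of arrays, not a count depth, limits precision. The fits were tested on simulated data. Both arteries of a mouse share its number in the labels, and the difference takes that block out. Deviations of the levels in the 2 arteries correlated at a median r of 0.088 (39 mice). Deviations of LCA minus RCA for the same number at different times correlated at a median of 0.0091 (57 pairs). As the first value is low even within a mouse, the second cannot show whether numbers pair mice across times. No arrays were identical (highest correlation 0.991).

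The 10 members, the 5 pathway lists and the cell marker lists (endothelial, smooth muscle, fibroblast, macrophage, neutrophil, T cell, B cell, platelet, adipocyte and Schwann cell) were chosen with earlier results of these data known. Named genes are the members, up to 4 called genes of largest difference per list, treatment and time (48 h, 2 weeks), the members of small counts, and the 3 genes most like each member by Pearson r, of which 1 to 3 are printed. At 2 weeks 3 of 8 fibroblast markers were higher and 3 lower, and T cell markers were higher (4 and 2 of 4). Of 4 platelet markers 1 was higher and 1 lower, and 0 of 2 adipocyte markers were called. Of all tested genes 15.5% and 14.5% were then called higher and 12.3% and 15.4% lower (vehicle and atorvastatin). B cell and Schwann cell markers did not pass the filter. Alternatives were other filters, normalizations, probe set summaries, variance estimates and blocks, the Gapdh 3′ to 5′ ratio as a covariate, and leaving out each mouse.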

Additional observations from a re-analysis of the deposited data

Results flagged for a closer look

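In 4 of 80 groups tested, 1 mouse stood apart from the others of its group; about 1 group in 20 does so by chance. In vehicle mice at 2 weeks Tgfbr2 differed between the arteries by -0.038 in mouse 1, against 0.312 to 0.425 in the other 4, and Ltbp3 by -0.361 in mouse 2, against 0.646 to 0.827. In vehicle mice at 12 h Ltbp3 differed by 0.217 in mouse 4, against -0.088 to -0.013 in the others. Under atorvastatin at 24 h Ltbp4 differed by -0.477 in mouse 10, against -0.090 to 0.062.

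The difference between LCA and RCA itself changed between times in these cases, by limma with Benjamini-Hochberg adjustment over all tested genes. From 24 h to 48 h with vehicle, it rose for Tgfb1 (2.30, adjusted p = 0.0052) and Ltbp2 (1.52, adjusted p = 0.014). It fell for Tgfbr2 (-1.06, adjusted p = 0.00079), Tgfbr3 (-1.76, adjusted p = 0.0018), Ltbp1 (-2.09, adjusted p = 0.0034), Ltbp3 (-0.78, adjusted p = 0.013) and Ltbp4 (-1.20, adjusted p = 0.0087). Over the same step with atorvastatin it rose for Ltbp2 (2.30, adjusted p = 0.0012) and fell for Tgfbr2 (-0.88, adjusted p = 0.0050), Tgfbr3 (-1.23, adjusted p = 0.031), Ltbp3 (-0.85, adjusted p = 0.012) and Ltbp4 (-1.01, adjusted p = 0.038).

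From 48 h to 2 weeks the difference rose with vehicle for Tgfb3 (2.56, adjusted p = 0.0021), Tgfbr2 (0.79, adjusted p = 0.021), Ltbp1 (3.40, adjusted p = 5e-05), Ltbp2 (3.65, adjusted p = 1.8e-06) and Ltbp3 (1.11, adjusted p = 0.0030). With atorvastatin it rose for Tgfb3 (2.96, adjusted p = 0.00058), Ltbp1 (2.65, adjusted p = 0.0017), Ltbp2 (3.67, adjusted p = 4.6e-06) and Ltbp3 (1.58, adjusted p = 6.2e-05).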

How the results depend on the processing

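The number of mice and the spread between them at 48 h limit these results, and batch could not be tested. Median centring, quantile normalization, the stricter filter, the title code as a block and a trended variance kept all 33 counts of called members within 1.5 times. The replicate block (a number shared across times) kept 12 of 12. Without the replicate block (LCA and RCA unpaired) 7 of 8 counts were kept, and the atorvastatin 24 h count went from 2 to 1. It was also 1 with no filter, with these mice alone and with the Gapdh covariate. With these mice alone the vehicle counts were 1 at 12 h and 3 at 48 h, and the atorvastatin 48 h count was 1. With the Gapdh covariate the vehicle 24 h count, the vehicle count from 24 h to 48 h and the vehicle RCA count over time were 0; with the mean of probe sets the last was 1. The mean of probe sets reversed Tgfbr2 in vehicle mice at 24 h (-0.0078). Leaving out single mice gave counts of 2 to 3 (24 h), 5 to 9 (48 h) and 3 to 6 (2 weeks) with vehicle, and 0 to 3, 1 to 6 and 5 to 7 with atorvastatin. From 24 h to 48 h they were 6 to 7 and 2 to 8, from 48 h to 2 weeks 4 to 6 and 4 to 5, over time 9 to 10 and 7 to 9, in the LCA 8 to 10 and 8 to 9, and in the RCA 2 to 3 and 0 to 1. The cause was not tested.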
